A study of Sus scrofa with 3 samples.

Results

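The genes described here act in meiotic recombination, and their transcripts were measured in spermatogonia sorted from pig testes. The set holds 10 listed genes, SPO11, MEI1, PRDM9, DMC1, MEIOB, SPATA22, MSH4, MSH5, HFM1 and TEX11. They were chosen by gene symbol from a table of 18730 genes. The table's own symbols gave 7 of them, and a reference table of Ensembl names gave SPATA22 and MSH5 from their gene IDs, so 9 were measured. No row was matched to PRDM9, which was not analysed here.

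The samples form a single group: 3 RNA libraries, named S1, S2 and S3, of germ cells sorted as positive for SSEA4 (stage-specific embryonic antigen 4, a cell surface glycolipid) from pigs aged 90 days. The labels name no genotype, breed or treatment, and do not state that each library is from its own animal. All p-values therefore rest on the spread from library to library, and that spread may be technical. In the limma tests below, the spread of each gene was moderated by that of the other genes. A population of undifferentiated spermatogonia, also named in the study's design, was not analysed here, so no difference between cell populations was tested.

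In meiotic recombination the chromosomes are cut on purpose and repaired from the homologous partner, and some of the repairs become crossovers that hold the partners together until they separate. The cuts are made by SPO11 with its accessory proteins, at sites that PRDM9 marks on chromatin in mouse and human. The broken ends are trimmed to single strands, on which the recombinase DMC1 forms filaments with help from MEIOB and SPATA22. The joined molecules are then stabilised by MSH4 and MSH5 and processed with the helicase HFM1 and with TEX11. This work belongs to the first meiotic prophase, after the spermatogonial stage.

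Levels were given as FPKM, mapped fragments divided by gene length in kilobases and by the library total, which are per length and so can be compared between genes. The column sums were 859642, 855276 and 781871 FPKM in S1, S2 and S3, of which mitochondrially encoded genes held 57.7%, 59.3% and 52.7%. The deposited table's name says TPM, a unit that would differ by 1 factor per library, so levels set against 1 FPKM carry that doubt. No counts were used, so the depth is unknown and no counting interval or detection limit is given. Among 12 measured marker genes of undifferentiated spermatogonia, 10 stood above 1 FPKM and 2 below, beside 65.6% and 28.5% of all genes tested. They ran from BCL6B at 0.194 FPKM to ELAVL2 at 140 FPKM, with GFRA1 at 2.96 and ZBTB16 at 5.16. Of 10 markers of pachytene spermatocytes, a later stage, 9 stood above, so such counts do not set the stages apart. Library S3 stood apart from S1 and S2, and the values that rest on it are given separately below.

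Transcripts of most of these recombination genes were present, at levels that spanned more than 2 orders of magnitude. SPATA22, MSH4 and HFM1 were high, DMC1 was intermediate, MEIOB, MSH5 and SPO11 were low, and TEX11 and MEI1 stood at or under 1 FPKM. In a limma test of log2(FPKM + 1) against the level of 1 FPKM, with Benjamini-Hochberg adjustment over 17949 genes and a threshold of 0.05, 7 of the 9 measured genes lay above, 1 below and 1 was not told apart. Among all genes tested, 65.6% lay above, 28.5% below and 5.94% were not told apart. The count of 7 among 9 is thus not far from the background share. At a level of 5 FPKM, 4 of the 9 lay above and 5 below, beside 42.5% and 50.9% of all genes tested. When mitochondrial and ribosomal protein genes were left out and the libraries rescaled to 1000000, 9 of 9 lay above a level of 1 and 0 below. The shares over all genes tested were then 76.5% and 16.4%. That step raised the remaining values, for SPO11 from a mean of 2.23 to 6.80, so 1 was a less strict level there. Without S3 the counts of the 9 genes were again 7 above and 1 below. The median level of the 9 genes was 2.18 on the log2(FPKM + 1) scale, beside 2.30 for all genes tested.

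**Figure D1:**
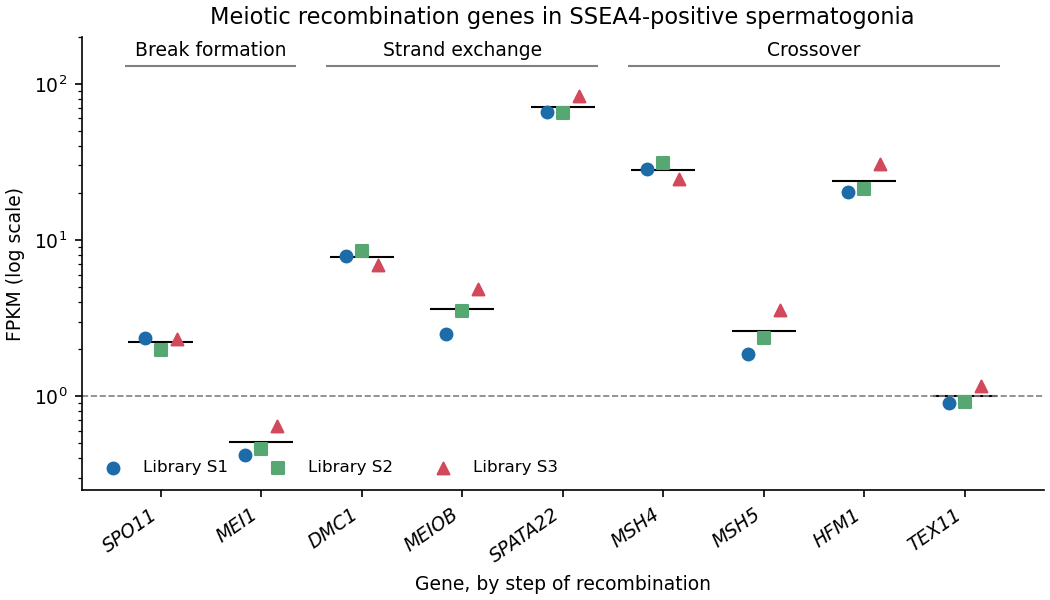
FPKM of the 9 measured recombination genes (vertical axis, log scale) in libraries S1, S2 and S3 of SSEA4-positive spermatogonia, ordered by step along the horizontal axis. Symbols are single libraries, black lines are means of 3 libraries and the dashed line is 1 FPKM; SPATA22 lies highest, at a mean of 71.1 FPKM, and MEI1 lowest, at 0.507 FPKM.

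Of the genes for making the breaks, SPO11 (ENSSSCG00000007502), the topoisomerase-like enzyme that cuts the DNA, had 2.37, 1.98 and 2.34 FPKM in libraries S1, S2 and S3. The libraries were close to each other, with a mean of 2.23 ± 0.216 FPKM (SD, n = 3). On the log2(FPKM + 1) scale SPO11 stood 0.69 above the level of 1 FPKM (SE 0.07, limma adjusted p = 0.00022). It exceeded 41.2% of the genes tested.

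MEI1 (ENSSSCG00000034405), a protein needed for break formation in mouse, had 0.421, 0.457 and 0.641 FPKM in libraries S1, S2 and S3. All 3 libraries lay under 1 FPKM. The log2 difference from the level was -0.41 (SE 0.05, limma adjusted p = 0.00057). It was 0.34 when mitochondrial and ribosomal protein genes were left out and the libraries rescaled (adjusted p = 0.0179). That step raised the mean of MEI1 from 0.507 to 1.54, so the level of 1 was less strict there. Its adjusted p ranged from 4.47e-07 to 0.953 over the alternatives, the highest of them at a level of 0.5 FPKM. The gene span of MEI1 overlaps that of CCDC134 in the RefSeq annotation of Sscrofa11.1, and CCDC134 was measured at 1.62 ± 0.254 FPKM. Whether fragments were counted by strand is not given in the sources used here. Whether reads of CCDC134 enter the value of MEI1 was not tested.

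A row named PRDM7, the closest relative of PRDM9, was looked up after the values were seen. It had 0.327, 0.396 and 0.122 FPKM in libraries S1, S2 and S3, under 1 FPKM in 3 of 3 libraries. These values are given for PRDM7 as the files name it, and were not counted as PRDM9. Whether this row holds the pig counterpart of PRDM9 was not tested.

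Of the genes for strand exchange, SPATA22 (ENSSSCG00000029709), a partner of MEIOB on single-stranded DNA, was the highest of the set. It had 65.7, 64.7 and 82.9 FPKM in libraries S1, S2 and S3, and its mean of 71.1 ± 10.2 FPKM (SD, n = 3) exceeded 94.5% of the genes tested. S3 was the highest library. SPATA22 stood 5.16 above the level on the log2 scale (SE 0.09, limma adjusted p = 1.07e-07).

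DMC1 (ENSSSCG00000000103), the recombinase that works only in meiosis, had 7.87, 8.55 and 6.88 FPKM in libraries S1, S2 and S3. Its mean was 7.77 ± 0.84 FPKM (SD, n = 3) and S3 was the lowest library. It stood 2.13 above the level on the log2 scale (SE 0.08, limma adjusted p = 1.97e-06) and exceeded 62.2% of the genes tested. In the RefSeq annotation its span overlaps that of a long noncoding RNA gene.

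MEIOB (ENSSSCG00000025711), a single-strand binding protein related to replication protein A, had 2.52, 3.50 and 4.88 FPKM in libraries S1, S2 and S3. The libraries were spread widely, with a coefficient of variation of 32.7%, beside a median of 12.2% over all genes tested. The mean of 3.63 ± 1.19 FPKM (SD, n = 3) lay 1.18 above the level on the log2 scale (SE 0.15, limma adjusted p = 0.00055).

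Of the genes for crossover formation, MSH4 (ENSSSCG00000003775), a MutS homologue that clamps joined DNA molecules, had 28.6, 31.3 and 24.4 FPKM in libraries S1, S2 and S3. S3 was the lowest library, as it was for DMC1. The mean of 28.1 ± 3.47 FPKM (SD, n = 3) exceeded 84.5% of the genes tested and lay 3.86 above the level on the log2 scale (SE 0.08, limma adjusted p = 2.25e-07).

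MSH5 (ENSSSCG00000035596), the other subunit of that clamp, had 1.86, 2.37 and 3.56 FPKM in libraries S1, S2 and S3. S3 was the highest library and the coefficient of variation was 33.6%, the largest among the 9 genes. The mean of 2.60 ± 0.872 FPKM (SD, n = 3) lay 0.82 above the level on the log2 scale (SE 0.14, limma adjusted p = 0.00204).

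HFM1 (ENSSSCG00000006912), a germ-line DNA helicase, had 20.3, 21.1 and 30.6 FPKM in libraries S1, S2 and S3. S1 and S2 were close together and S3 lay above both. Its mean of 24.0 ± 5.72 FPKM (SD, n = 3) exceeded 82.1% of the genes tested and lay 3.62 above the level on the log2 scale (SE 0.12, limma adjusted p = 1.4e-06).

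TEX11 (ENSSSCG00000030850), an X-linked protein that promotes crossovers in mouse, had 0.901, 0.924 and 1.17 FPKM in libraries S1, S2 and S3. The libraries lay on both sides of 1 FPKM. The log2 difference from the level was -0.0046 (95% interval from -0.16 to 0.15, limma adjusted p = 0.943). It turned to 0.14 after each library was rescaled to a sum of 1000000. Without mitochondrial and ribosomal protein genes it was 1.01, where TEX11 lay above the level (adjusted p = 0.000135). Over all alternatives the adjusted p ranged from 2.07e-06 to 0.993. The lowest was at a level of 5 FPKM, where TEX11 lay below, at a log2 difference of -1.59. The highest was under quantile normalization. In the RefSeq annotation the span of TEX11 overlaps 2 pseudogenes.

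**Figure D2:**
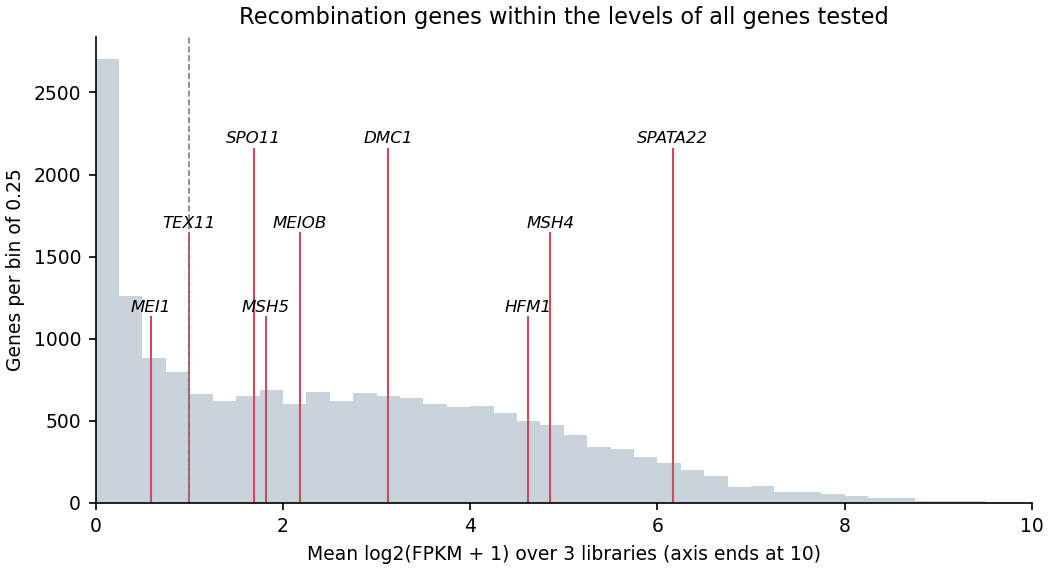
Number of genes (vertical axis) by mean log2(FPKM + 1) over 3 libraries (horizontal axis, ending at 10) for the genes tested, with red lines at the 9 recombination genes and a dashed line at the level of 1 FPKM. The recombination genes run from MEI1 at 0.59 to SPATA22 at 6.16, with no single place in the distribution.

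In the order of the levels, SPATA22 came first, followed by MSH4, HFM1, DMC1, MEIOB, MSH5, SPO11, TEX11 and MEI1. This order was taken from the means of the same 3 libraries, so the mean direction of each neighbouring pair was fixed in advance. Of the 8 neighbouring pairs, 6 kept the order in 3 of 3 libraries. MSH4 and HFM1 did not keep it: the difference in log2(FPKM + 1) was 0.24 ± 0.48 (SD, n = 3) and HFM1 was the higher in S3. MSH5 and SPO11 did not keep it either, with a difference of 0.13 ± 0.35 and SPO11 the higher in S1. Without S3 that difference changed sign, to -0.03. The exact sign-flip permutation test, two-sided, gave p = 0.25 for the other 6 neighbouring pairs, the smallest that 3 libraries allow (adjusted p = 0.333 over 8 pairs). The test thus could not tell any of the neighbours apart. Taken over the 9 genes, the summed level was 130.6, 134.9 and 157.4 FPKM in libraries S1, S2 and S3, and SPATA22, MSH4 and HFM1 held 87.8%, 86.8% and 87.6% of it.

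The partners MEIOB and SPATA22, and the partners MSH4 and MSH5, did not have like transcript levels. Ratios between genes within a library do not depend on whether the values are FPKM or another unit scaled per library. The ratio of MEIOB to SPATA22 was 0.0383 in S1, 0.054 in S2 and 0.0588 in S3, so SPATA22 was between 17.0 and 26.1 times as high as MEIOB. The ratio of MSH4 to MSH5 was 15.3 in S1, 13.2 in S2 and 6.86 in S3, a wide excess of MSH4 in each library that was least in S3. These ratios are of transcripts and say nothing of the proteins.

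Other pairs, within a step or between steps, differed too. TEX11 stood at 0.0443 of HFM1 in S1, 0.0439 in S2 and 0.0381 in S3, a ratio that changed little between libraries. MEI1 stood at 0.178 of SPO11 in S1, 0.231 in S2 and 0.274 in S3, and SPO11 at 0.302, 0.232 and 0.340 of DMC1 in the same libraries. Each of these 5 pairs had its direction in 3 of 3 libraries, with p = 0.25 in the exact sign-flip permutation test (adjusted p = 0.25 over 6 pairs), the smallest that 3 libraries allow.

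**Figure D3:**
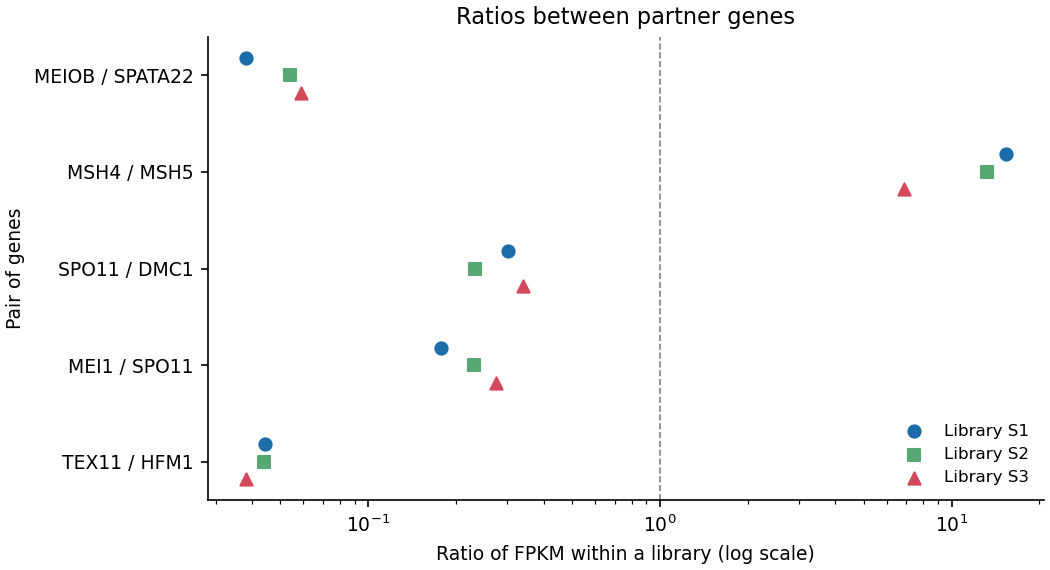
Ratio of FPKM between the genes of each pair (horizontal axis, log scale) in libraries S1, S2 and S3, with a dashed line at equal levels. SPATA22 exceeded MEIOB and MSH4 exceeded MSH5 by wide margins in each library, and TEX11 stood far under HFM1, at ratios from 0.0381 to 0.0443.

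Other genes of the pathway were present for each step. Of 10 further genes for break formation, 9 lay above 1 FPKM and 1 below in the same limma test. Among all genes tested, 65.6% lay above and 28.5% below. The median level of the break formation genes was 3.78 on the log2(FPKM + 1) scale. The highest were HELLS, a chromatin remodeller that works with PRDM9 in mouse, at 55.5 ± 6.52 FPKM (SD, n = 3), ZCWPW1, a reader of the histone marks that PRDM9 writes, at 33.2 ± 3.48, HORMAD1 of the chromosome axis at 20.8 ± 1.55 and TOP6BL, the partner subunit of SPO11, at 19.7 ± 3.52. TOP6BL thus stood well above SPO11 itself. MEI4 had 4.07 ± 0.769 FPKM and IHO1 had 0.0892 ± 0.0402 FPKM, both accessory proteins of the cut. REC114, the partner of MEI4, had 12.3 ± 0.883 FPKM and was named after its values were seen.

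Of 24 measured genes for trimming the ends and for strand exchange, 23 lay above 1 FPKM and 1 below. The shares over all genes tested were 65.6% and 28.5%. The median level of this list was 3.61 on the log2 scale. The highest were RBBP8 (CtIP), which starts the trimming, at 264 ± 39.2 FPKM (SD, n = 3), NBN at 197 ± 23.7 and RAD50 at 179 ± 10.3, which belong to the same break-sensing complex. MRE11, also of that complex and named after its values were seen, stood far lower, at 12.3 ± 0.141 FPKM. These genes also serve repair in dividing cells. MND1, which assists DMC1 in meiosis, had 53.8 ± 10.6 FPKM. The lowest was RAD54B at 0.563 ± 0.348 FPKM. It was the gene below the level, and no gene of the list was called below without S2 or without S3. BRME1 and TEX15, also listed, were not analysed here.

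Of 16 measured genes for crossovers and for resolving joined molecules, 14 lay above 1 FPKM, 1 below and 1 was not told apart. The shares over all genes tested were 65.6%, 28.5% and 5.94%. The median level of this list was 3.32 on the log2 scale. Among the high genes were PRR19 at 25.1 ± 2.26 FPKM (SD, n = 3), and RMI1 at 19.9 ± 0.818 and the helicase BLM at 14.6 ± 2.16, 2 proteins that take joined molecules apart. CNTD1, a partner of PRR19 in mouse, stood at 0.155 ± 0.0807 FPKM, and RNF212B at 0.714 ± 0.374 FPKM (limma adjusted p = 0.0893). Without S3 the number below the level was 2. SPO16 and RNF212 were not analysed here.

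The nearest related list, of 13 measured genes of the chromosome axis and the synaptonemal complex, had a higher median level, 5.07 on the log2 scale. In it 13 of 13 lay above 1 FPKM, beside 65.6% of all genes tested. SYCP3, SMC1B, STAG3 and SYCP1 led it, between 63.5 and 403 FPKM. Its lowest genes were REC8, a meiotic cohesin subunit, at 4.22 ± 0.917 FPKM (SD, n = 3) and HORMAD2 at 1.26 ± 0.183 (limma adjusted p = 0.047). The number above was 12 with a pseudocount of 0.1, with genes averaging under 0.5 FPKM left out and without any 1 of the libraries. RAD21L1 was not analysed here. The 5 pathway lists and the recombination genes were compared by their counts and medians only.

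Genes of meiotic entry were divided. Of 6 genes, 4 lay above 1 FPKM, 1 below and 1 was not told apart, with a median of 3.05 on the log2 scale. The share above, 66.7%, was close to the 65.6% of all genes tested. The RNA-binding proteins RBM46 and YTHDC2 had 96.5 ± 3.57 and 15.1 ± 1.76 FPKM (SD, n = 3), ZGLP1 had 8.39 ± 0.622 and MEIOC, the partner of YTHDC2, 6.56 ± 2.14. STRA8 and MEIOSIN, which together switch on meiotic genes in mouse, had 0.572 ± 0.220 and 0.658 ± 0.370 FPKM. STRA8 lay below the level (limma adjusted p = 0.00836) and MEIOSIN was not told apart from it (adjusted p = 0.072), but lay below it without S1, where 2 genes of the list were called below.

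**Figure D4:**
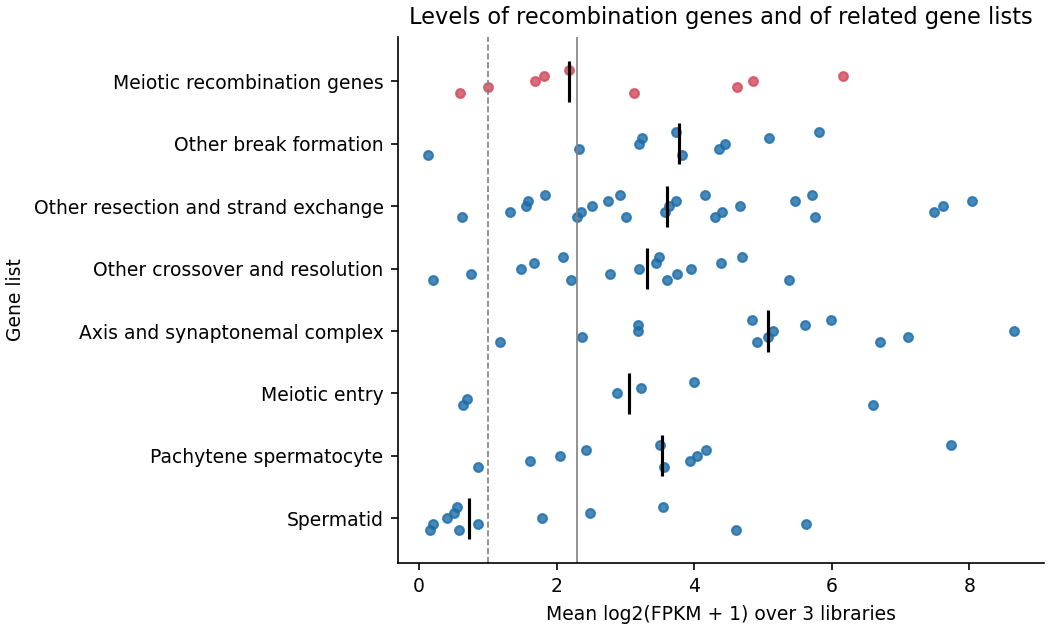
Mean log2(FPKM + 1) over 3 libraries (horizontal axis) of single genes in the recombination set (red) and in related lists (blue), with black bars at list medians, a dashed line at 1 FPKM and a grey line at the median of the genes tested, 2.30. The recombination genes have a median of 2.18, the axis and synaptonemal complex genes one of 5.07 and the spermatid genes one of 0.72.

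Markers of other cells were measured beside these values. Of 10 genes of pachytene spermatocytes, the cells in which recombination is completed, 9 lay above 1 FPKM and 1 below, led by the chaperone CLGN at 212 ± 8.54 FPKM, ADAD1 at 17.1 ± 2.81, PIWIL1 at 15.4 ± 0.91 and MYBL1 at 14.4 ± 2.06 (SD, n = 3). The lowest were OVOL1 at 2.05 ± 0.166 and PGK2 at 0.807 ± 0.129 FPKM. PGK2 was the gene below the level (limma adjusted p = 0.0457), and the number below was 0 with a pseudocount of 0.1, under the filter at 0.5 FPKM, after rescaling to 1000000, without mitochondrial and ribosomal protein genes, without S2 and without S3. Their summed level was 286, 281 and 304 FPKM in libraries S1, S2 and S3. Of 12 spermatid genes, 4 lay above and 6 below, and 2 were not told apart. Beside both lists, 65.6% of all genes tested lay above 1 FPKM and 28.5% below. The spermatid sum was 146.2, 72.79 and 97.48 FPKM in libraries S1, S2 and S3, and PRM1 alone had 51.0, 1.53 and 11.01 FPKM in the same libraries. No gene of these lists was at 0 in every library. In bulk RNA, a few cells with much of a transcript and many cells with little of it cannot be told apart, and the part of spermatocytes in the levels of the recombination genes was not tested.

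Of the somatic markers, 7 of 12 Sertoli genes lay above 1 FPKM and 5 below, and 3 of 6 Leydig genes above and 2 below. Of the peritubular and fibroblast genes 7 of 7 lay above. Endothelial genes had 3 of 5 above and 1 below, and leukocyte genes 0 of 6 above and 5 below. The shares over all genes tested were 65.6% above and 28.5% below. The Sertoli sum was 678, 570 and 432 FPKM in libraries S1, S2 and S3, against the direction of the sum over the recombination genes. Most of the Sertoli sum came from CLU, at 325, 234 and 125 FPKM in the same libraries, and BEX1, at 272, 268 and 248 FPKM. Its fall was thus mainly that of CLU. WT1 of the Sertoli list had a mean of 42.8 FPKM, and DCN of the peritubular and fibroblast list had a mean of 31.4 FPKM. The 5 Sertoli genes below the level were FSHR at 0.573 FPKM, AMHR2 at 0.566, AMH at 0.377, GATA1 at 0.0339 and DHH at 0.0203. COL1A2 was the lowest peritubular and fibroblast gene, at 1.28 FPKM. FSHR, AMHR2 and AMH were named after their values were seen. Of the Leydig genes, CYP11A1 had the highest mean, with 12.0, 9.75 and 2.64 FPKM in libraries S1, S2 and S3. LHCGR, a Leydig cell receptor, had the lowest mean of that list and was listed at 0 in S1 and S3.

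Between libraries, the recombination genes did not move as a block. In S3, MEIOB stood 0.56 higher in log2(FPKM + 1) than the mean of S1 and S2, MSH5 0.55 higher, HFM1 0.54 higher and SPATA22 0.34 higher. MSH4 was lower there, at -0.28, as was DMC1, at -0.22. TEX11 at 0.18, MEI1 at 0.19 and SPO11 at 0.07 lay between. Among 12340 genes averaging 1 FPKM or more the same difference had a median of 0.05, and the central 95% of genes lay from -0.61 to 0.48. MEIOB, MSH5 and HFM1 were thus above that range and the other 6 genes inside it. Library S1 in turn stood under the mean of S2 and S3, by -0.55 for MEIOB, -0.45 for MSH5 and -0.31 for HFM1. The spread of MEIOB and MSH5 was therefore not that of S3 alone. TEX11 and MEI1 themselves averaged under 1 FPKM, at 0.997 and 0.507, and the range was not matched to the level of any gene. These are descriptions of 1 library against the mean of the remaining pair, with no test.

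The directions of all 9 genes in S3 were the same under rescaling to 1000000, without mitochondrial and ribosomal protein genes and under quantile normalization. Rescaling to 1000000 shifted the median over genes averaging 1 FPKM or more to 0.17, where DMC1 was at -0.11 and MSH4 at -0.15. The median of the 9 genes in S3 was 0.19, and set against that of those genes it was 0.14 as deposited, 0.10 after that rescaling and 0.28 without mitochondrial and ribosomal protein genes. S3 was the highest library for 6 of the 9 genes (66.7%), beside 45.2% of all genes tested.

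**Figure D5:**
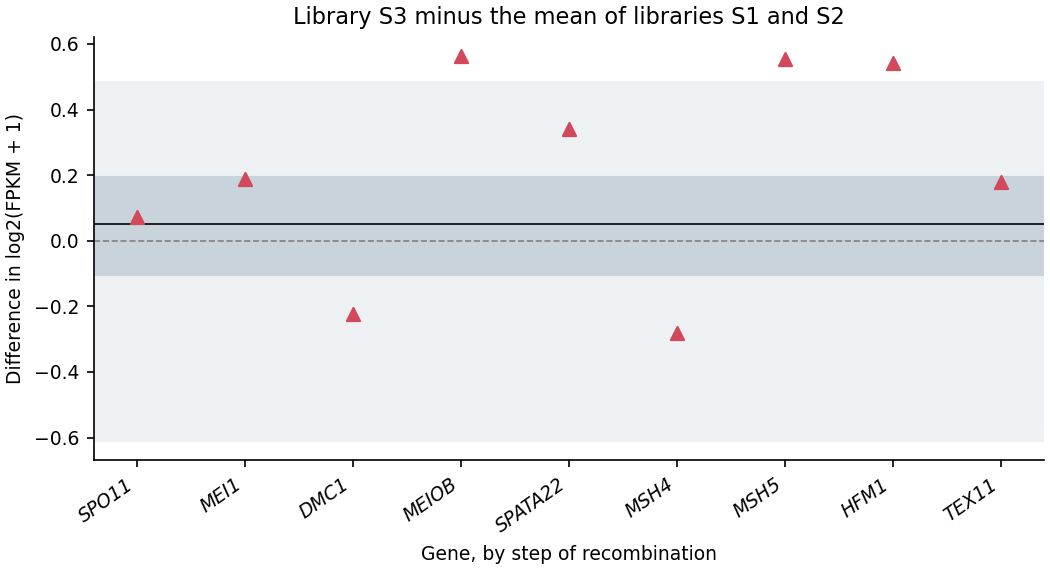
Library S3 minus the mean of libraries S1 and S2 in log2(FPKM + 1) (vertical axis) for the 9 recombination genes (triangles), ordered by step. The black line is the median, 0.05, and the dark and pale bands the central 50% and 95% of 12340 genes averaging 1 FPKM or more; MEIOB, MSH5 and HFM1 lie above the pale band, and DMC1 and MSH4 lie under the dark band.

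Other lists differed from each other in S3. The median difference was 0.40 for axis and synaptonemal complex genes and 0.26 for the further break formation genes, of which 8 of 10 were highest in S3. It was 0.07 for the further crossover genes and -0.02 for resection and strand exchange genes; the first changed sign without mitochondrial and ribosomal protein genes and the second after rescaling to 1000000. Genes of meiotic entry stood at -0.32, with STRA8 at 0.319 FPKM in S3, against 0.713 in S1 and 0.685 in S2. Genes of undifferentiated spermatogonia stood at 0.26, pachytene genes at 0.02, with a negative sign once mitochondrial and ribosomal protein genes were removed, and spermatid genes at -0.12. Sertoli genes stood at -0.36, endothelial genes at -0.23, peritubular genes at -0.09, Leydig genes at -0.07 and leukocyte genes at -0.01; the peritubular and leukocyte values were positive after rescaling to 1000000, at 0.03 and 0.01. Whether these markers have a part in the differences of the recombination genes was not tested.

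Of 14905 other genes with a symbol, those nearest to SPATA22 by Euclidean distance over the 3 values of log2(FPKM + 1) were ZC3H6, a zinc finger protein, at a distance of 0.04, CUL4B, a ubiquitin ligase scaffold, at 0.04, and AATF at 0.05. ZC3H6 had 67.4, 65.0 and 82.4 FPKM in libraries S1, S2 and S3. This likeness rests on 3 libraries of 1 group.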

How the data were processed

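RNA of 3 libraries of SSEA4-positive pig spermatogonia was measured. Per the labels' protocols, rRNA-depleted, directional libraries were sequenced on a HiSeq 4000 with paired 150 bp reads. Adaptors were removed with cutadapt 1.9.3, alignment used HISAT2 2.0.4, and Cuffdiff gave gene-level FPKM, the unit deposited by the authors. The table's name says TPM. The labels name susScr3, and the submitters' processing notes add Sscrofa11.1, and coordinates are therefore left out. The columns S1 to S3 could not be tied to single labelled samples and were used as libraries of 1 group. The reference table matched 14749 of 18730 IDs. In the lists, 334 rows with differing symbols were matched only under the reference symbol, and the search for nearest genes left them out. Mitochondrial and ribosomal protein genes, PRDM7 and CCDC134 were found by the table's own symbol where it gave one. Values under 1e-06 were set to 0 in 170 rows, and 781 genes at 0 in every library were left out.

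Values were tested as log2(FPKM + 1), pseudocount 1, with limma 3.58.1 in R 4.3.3 (intercept, eBayes with trend, two-sided), which understates differences of low genes. In simulated data of 17949 genes the test called 5.9% of 2000 genes placed at 1 FPKM, 88% of 200 at 1.5 FPKM and 92.5% of 200 at 0.5 FPKM. Partner genes and neighbours in level were compared by an exact sign-flip permutation test. Alternatives were a pseudocount of 0.1, a mean of at least 0.5 FPKM, 3 other scalings, levels of 0.5 and 5 FPKM and leaving out each library. Named genes were the set itself, its partners, the 4 highest and 2 lowest of each list, of which only some are printed for marker lists, and the 3 genes nearest to the highest member. The genes and lists were chosen with earlier results of these data known. No protein or promoter sequence was used here. A few results of these lists and pairs are not reported here.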

Additional observations from a re-analysis of the deposited data

How the results depend on the processing

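The number of recombination genes above 1 FPKM stayed at 7 under the alternatives for pseudocount, filter, rescaling to 1000000, quantile normalization and each left-out library. At a level of 5 FPKM, 4 lay above and 5 below, with SPO11 at a log2 difference of -0.90, MEIOB at -0.41 and MSH5 at -0.76; at 0.5 FPKM, 0 lay below, with TEX11 at 0.41 and MEI1 at 0.0034. Without mitochondrial and ribosomal protein genes, which raises the remaining values, 9 lay above and 0 below (TEX11 1.01, MEI1 0.34), as did 0 genes of resection and 0 of meiotic entry; 2924 genes in all lay below, and S3 minus the mean of S1 and S2 had a median of -0.013 over genes averaging 1 FPKM or more. Rescaling to 1000000 put TEX11 at 0.14 and left 0 resection genes below. The filter at 0.5 FPKM, which tests fewer low genes, left 798 genes below, with 0 for break formation and 0 for crossovers. Leaving out each library gave TEX11 between -0.065 and 0.030, the difference of MSH5 and SPO11 between -0.030 and 0.31, and counts below the level from 0 to 1 for resection, 1 to 2 for crossovers and 1 to 2 for meiotic entry; the causes were not tested. The genes named by the table alone, an alternative chosen with the data in view, gave 5 above and 1 below. No paired analysis was possible because the libraries form 1 group. What the depth, which is unknown, does to low values was not tested.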
